A study of Rattus norvegicus with 2 samples.

Results

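The genes of TGF-beta and BMP signalling were compared between 2 Affymetrix arrays of AT6.1, a line of rat prostate cancer cells. The 36 members were listed by symbol and comprise ligands, latent binding proteins, receptors, SMAD proteins, inhibitors and target genes. Of these, 34 had a probe set annotated to that gene alone, out of 14217 such genes on the array. Tgfbr2, the type II TGF-beta receptor, and Ski, a SMAD corepressor, were not analysed here. The first group was a clone (number 7) that received Ndrg-1 (N-myc downstream regulated gene-1) in the vector pcDNA3, and the other was a clone (number 9) of the same line that received the empty vector. Both clones were grown with 10% fetal calf serum in RPMI medium, under 0.3 mg/mL of G418, the antibiotic that selects for the vector. Each group was 1 clone measured on 1 array, so there are no replicates and no p-values, and clone, culture and array cannot be told apart from the insert.

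Ligands of the TGF-beta superfamily bind pairs of type I and type II serine/threonine kinase receptors, which phosphorylate SMAD proteins that enter the nucleus with SMAD4. TGF-beta and activin act mainly through SMAD2 and SMAD3, and BMPs through SMAD1 and SMAD5. Many direct target genes encode inhibitors of the pathway itself. In prostate epithelium TGF-beta is known as a growth inhibitor, and in advanced prostate cancer it is associated with invasion and matrix production.

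Each value is a probe set signal on a linear scale, and a ratio is the log2 of the Ndrg-1 clone over the vector clone relative to the median gene. Signals under a floor of 31.0, the median of all signals, were set to the floor for the ratio, so that a gene under it in 1 array has only a bound. Of the 34 members, 30 had a signal above the floor in 1 or both arrays. The only error available is how far probe sets of the same gene disagreed, with an SD of 0.23 on the log2 ratio (5336 probe sets of 2296 genes). It does not cover the spread between arrays, clones or cultures. In bulk RNA a lower signal can mean fewer expressing cells or less RNA per cell, which cannot be told apart.

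The 2 probe sets of Ndrg1, the transfected gene, had signals of 1353 and 154 in the Ndrg-1 clone and 1066 and 182 in the vector clone, with log2 ratios of 0.34 and -0.24, so neither was 2-fold higher in the clone labelled as carrying the insert. The hybridisation spikes were lower in the Ndrg-1 array (18 of 18 probe sets, median log2 ratio -0.54) and the poly-A spikes higher (23 of 24, median 0.21). Scaling to either would move the ratios of genes well above the floor by about that much in the opposite direction, and those at or near the floor by less, so ratios are meaningful only relative to the median gene. Of 6 epithelial markers only the keratin gene Krt8 was above the floor (38.7 against 46.4), and among prostate markers, Pbsn and Hoxb13 were below it in both arrays and Tmprss2 was near it (35.4 against 18.8). Of 4 mesenchymal markers 3 were above the floor, Vim (4344 and 5818), S100a4 (4156 and 5892) and Fn1 (2240 and 2556). The other, Cdh2, was under it in both arrays (15.2 and 7.40). The 3 endothelial markers on the array were under the floor. Of the leukocyte markers 3 of 5 were above it in 1 or both arrays, Cd14, Cd68 and Csf1r, the last in the vector clone alone (15.7 and 33.4). The summed signal of that list was 451 and 479, while the pan-leukocyte gene Ptprc was at 2.72 and 3.26. Of 7 fibroblast and smooth muscle markers 5 were above the floor in 1 or both arrays, Myh11 in the Ndrg-1 clone alone (42.5 and 25.3). The summed signal of that list was 2611 and 1755 and was mostly Thy1 (2141 and 1389). Acta2 was at 208 and 209 and Des at 38.8 and 46.5, and the part of these markers in the results was not tested.

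Few members differed strongly between the clones. In the Ndrg-1 clone Bmp2 and Tgfbi were lower by 2-fold or more and 0 members were 2-fold higher, among 30 measured. Over the 9182 measured genes, 1.5% were 2-fold lower and 1.62% were 2-fold higher, 3.13% in all. At 1.5-fold, a threshold chosen after the values were seen, 4 members were higher (Tgfb1, Tgfb2, Smad7 and Pmepa1) and 3 were lower (Bmp2, Tgfbi and Ltbp2), against 5.54% and 5.18% of all measured genes. These counts depended on the setting, with 14 higher and 2 lower when scaled to the hybridisation spikes and 3 and 10 when scaled to the poly-A spikes. With the floor at the 75th percentile they were 0 and 1, among 20 measured. All genes moved with the spike scalings, to a median log2 ratio of 0.53 and -0.21. The share of all genes past 1.5-fold was not counted in these settings, so the counts say nothing particular about the members. The median log2 ratio was 0.05 over the members and 0.0029 over all measured genes, and the median size regardless of direction was 0.41 and 0.20. The members were thus spread around 0, with 18 above and 12 below, and scaling to the hybridisation spikes would place 27 above 0 and scaling to the poly-A spikes 9.

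**Figure D1:**
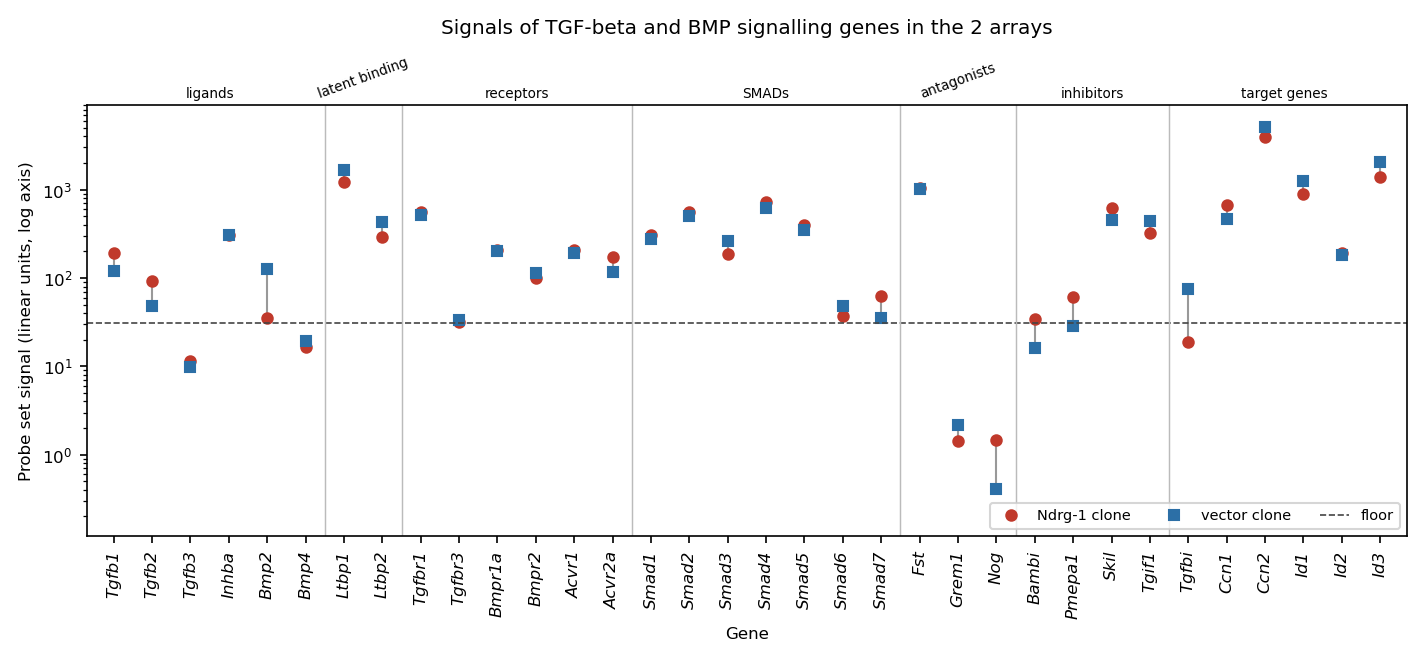
Probe set signal (log axis) of the 34 members with a probe set, by role, in the Ndrg-1 clone (circles) and the vector clone (squares), 1 array each, with the floor of 31.0 as a dashed line. Bmp2 and Tgfbi show the widest gaps among the members above the floor in an array, both with the lower signal in the Ndrg-1 clone, and Tgfb3, Bmp4, Grem1 and Nog lie under the floor in both arrays.

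Of the 6 ligand genes, 4 were measured, with Bmp2 below 0, Tgfb1 and Tgfb2 above it and Inhba near it, and Bmp2 was the 1 ligand past 2-fold. Bmp2, which encodes a bone morphogenetic protein known for inducing bone and cartilage, had signals of 35.2 (Ndrg-1 clone) and 125 (vector clone), 3.56-fold lower (log2 ratio -1.83). The Ndrg-1 signal was thus just above the floor, and the vector signal well above it. A second probe set of Bmp2 was under the floor in both arrays, at 12.8 and 26.3, and could be compared only with a floor at the 25th percentile, where its log2 ratio was -1.04. Over the 9 alternative settings in which it was measured, the ratio of Bmp2 ran from -2.04 to -1.29 and stayed past 2-fold in 9. With the floor at the 75th percentile, Bmp2 was under the floor in both arrays and was not counted.

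Tgfb2, a TGF-beta isoform, had signals of 93.2 and 47.9, 1.95-fold higher in the Ndrg-1 clone (log2 ratio 0.96). Its second probe set was at 39.4 against 20.6, so that the vector clone was under the floor and the ratio was at least 0.34. Tgfb1, the most widely expressed isoform, had signals of 191 and 120, 1.59-fold higher (0.67). Both TGF-beta isoforms were therefore higher in the Ndrg-1 clone relative to the median gene. Over 9 and 10 alternative settings, the lowest value was 0.65 for Tgfb2 and 0.16 for Tgfb1. A floor or pseudocount cannot change a sign, and scaling to the spikes moves ratios by about 0.54 up or 0.21 down. The kept signs are thus no test of direction. The lowest value for Tgfb1 came with the floor at the 75th percentile, which lies above its vector signal.

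Inhba, the subunit of activin A, was almost equal in the 2 arrays on its brighter probe set, at 309 and 308 (log2 ratio 0.0051). Its dimmer probe set was at 53.7 against 29.1, a ratio of at least 0.79, so its probe sets disagreed by more than 2 SD. Tgfb3 (11.5 and 9.93) and Bmp4 (16.6 and 19.4) lay under the floor in each array, so no ratio is given.

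Both latent TGF-beta binding proteins were lower in the Ndrg-1 clone relative to the median gene, although Ltbp1 turned to 0.10 when scaled to the hybridisation spikes. Ltbp1 encodes a protein that binds the latent TGF-beta complex covalently and tethers it to the matrix, whereas the product of Ltbp2 is a matrix protein of the same family that does not bind latent TGF-beta. Ltbp1 had signals of 1215 and 1653 (log2 ratio -0.44) and Ltbp2 of 288 and 433 (-0.59). Ltbp1 lies in the brightest decile of probe sets, whose median ratio was -0.13, and with a lowess trend on signal removed it was at -0.36. Ltbp2 stayed below 0 in 10 of 10 alternative settings, though at -0.04 when scaled to the hybridisation spikes, and Ltbp1 in 9 of 10.

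Of the 6 measured receptors 0 passed 1.5-fold, which for so few genes is near the 10.7% of all measured genes. Their median log2 ratio was 0.06. Acvr2a, a type II receptor for activin that also binds BMPs, had the highest ratio at 171 against 117 (0.55). Tgfbr1, the type I TGF-beta receptor, had signals of 564 and 513 (0.14). Bmpr1a, a type I BMP receptor, was at 207 and 204 (0.02), and its type II partner Bmpr2 had the lowest ratio, at 99.5 and 113 (-0.18). The 3 probe sets of Acvr1, a further type I BMP receptor, lay between -0.0092 and 0.10. Tgfbr3, the co-receptor betaglycan, lay close to the floor in both arrays, at 31.4 and 33.5 (-0.09), and its second probe set, under the floor in both at 29.0 and 12.1, was 2.40-fold higher once the floor was lowered to the 25th percentile. Of these 6, Acvr2a ran from 0.34 to 1.10 over 9 alternatives, its ratio being larger than the downward shift of the poly-A scaling. The other 5, with smaller ratios, changed sign under at least 1 of the spike scalings.

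Among the SMAD genes, the inhibitory Smad7 stood apart from the rest. Its signals were 62.7 and 34.8, 1.80-fold higher (log2 ratio 0.85), with the vector clone near the floor. SMAD7 blocks type I receptors and its gene is itself induced by TGF-beta. The other 2 probe sets of Smad7 were under the floor in both arrays, at 22.9 and 21.0 and at 14.0 and 17.0, and with the floor at the 25th percentile their ratios were 0.12 and -0.28, so they did not show the same difference. Smad6, which preferentially inhibits BMP receptors, was at 36.7 and 47.9 (-0.38, turning to 0.16 under hybridisation-spike scaling).

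The signal-transducing SMADs differed by less than 1.5-fold on their brightest probe sets. Smad3, a mediator of TGF-beta, was the lowest at 187 against 262 (log2 ratio -0.49). Smad2, its close relative, was at 553 and 503.9 (0.13). Smad3 and Smad2 thus lay on opposite sides of 0, although spike scaling turned each in 1 case, Smad3 to 0.06 and Smad2 to -0.08. The shared partner Smad4 was at 720.1 and 620.1 (0.22), with a second probe set at -0.02. Smad1, a mediator of BMPs, was at 307 and 274 (0.16), with a dimmer probe set at 44.8 against 25.3 (at least 0.53). Smad5, another BMP mediator, had 4 probe sets at 0.21, 0.14, -0.22 and -0.28. The brighter pair lay above 0 and the dimmer pair below it, so no direction can be given for Smad5.

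The extracellular antagonists gave 1 measured gene. Fst, whose product follistatin binds activin, was bright and nearly equal, at 1040.1 against 1025 (log2 ratio 0.02) and at 728 against 741 on its second probe set (-0.03). The BMP antagonists Grem1 (1.42 and 2.16) and Nog (1.45 and 0.41) were far under the floor in both arrays.

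The membrane and nuclear inhibitors lay above 0 apart from Tgif1. Pmepa1, a TGF-beta-induced membrane protein that sequesters SMAD2 and SMAD3, had signals of 60.9 and 28.7, or 1.96-fold higher as a lower bound (log2 ratio at least 0.97). With the floor at the 25th percentile it was 2.12-fold higher. Skil, which encodes the SMAD corepressor SnoN, was at 626 and 455 (0.46), and Bambi, a decoy receptor without a kinase domain, was at 34.4 with the vector clone under the floor (at least 0.15, and 1.10 with the lower floor). Tgif1, a homeodomain corepressor of SMAD2, was lower at 324 against 446 (-0.46, turning to 0.08 under hybridisation-spike scaling). Pmepa1, Skil and Bambi stayed above 0 in 9 of 9, 10 of 10 and 9 of 9 alternatives. A floor or pseudocount cannot change a sign and hybridisation-spike scaling moves ratios up, so these counts are no test of direction.

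**Figure D2:**
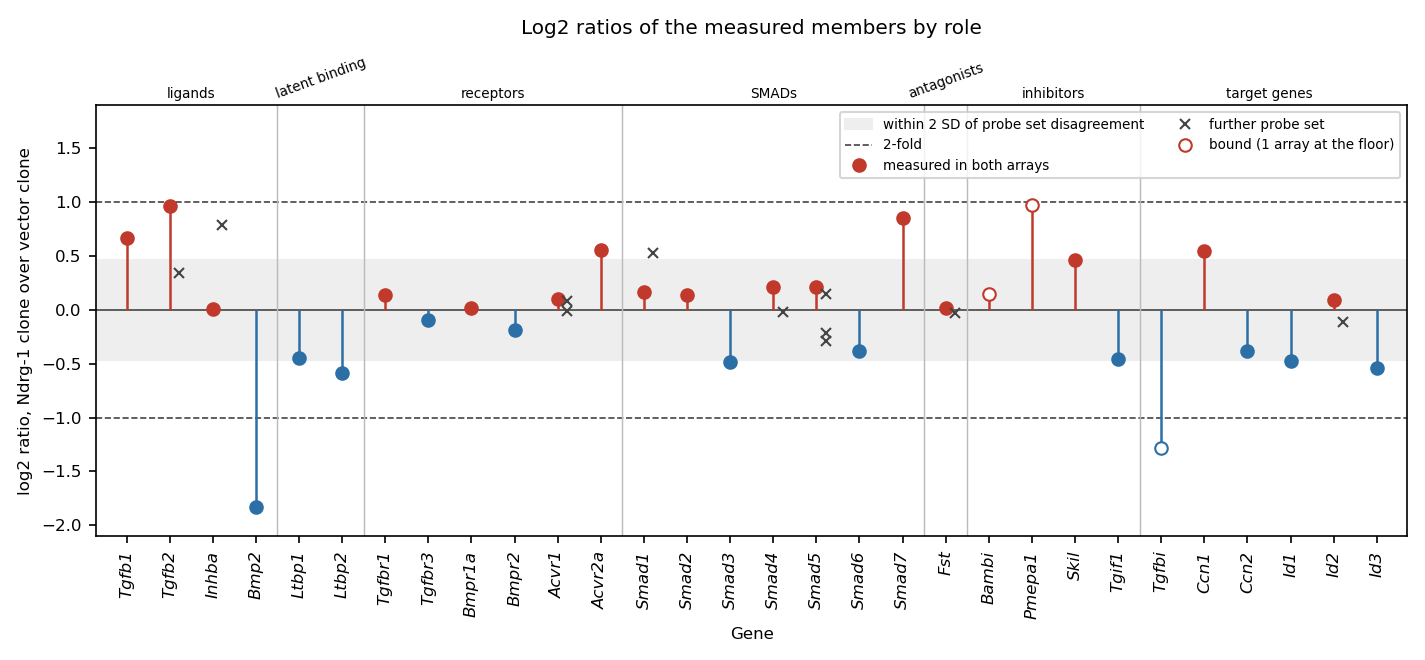
Log2 ratio of the Ndrg-1 clone over the vector clone for the 30 measured members by role, with open circles for bounds, crosses for further probe sets, dashed lines at 2-fold and a grey band of 2 SD of the disagreement between probe sets (0.46). Bmp2 and Tgfbi alone pass 2-fold, against 3.13% of all measured genes. Members lie outside the band on both sides, and the share of all genes outside it was not counted. The band is drawn from all signals together. Zero is the median gene, and scaling to the spikes would move points well above the floor by 0.54 up or 0.21 down.

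Of the 6 target genes 4 lay below 0 (median log2 ratio -0.43), with Tgfbi the lowest, while 50.4% of all measured genes lay above 0. The median depended on the processing, at -0.22 after quantile normalization and -0.24 with the lowess trend removed. It turned to 0.12 when scaled to the hybridisation spikes. Ccn2, Id1 and Id3 lie in the brightest decile of probe sets, whose median ratio was -0.13. Tgfbi, a matrix protein named for its induction by TGF-beta, had signals of 19.0 (Ndrg-1 clone) and 75.4 (vector clone), at least 2.43-fold lower (log2 ratio -1.28 or lower). The Ndrg-1 clone was under the floor, and with the floor at the 25th percentile Tgfbi was 3.97-fold lower (-1.99). It was at -0.9956 when scaled to the hybridisation spikes, which is just short of 2-fold, and past 2-fold in 8 of the 9 alternatives in which it was measured. Its signal was thus low in the clone in which Tgfb1 and Tgfb2 had the higher signals.

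The Id genes, which encode inhibitors of basic helix-loop-helix factors and are direct BMP targets, did not all differ. Id1 had signals of 897 and 1246 (log2 ratio -0.47) and Id3 of 1399 and 2033 (-0.54). Both were lower in the Ndrg-1 clone by a similar amount, a difference that hybridisation-spike scaling took to 0.07 and 0.0045. Id2 was at 192 and 181 (0.09), with a second probe set at -0.11. Id1 and Id3 lie in the brightest decile, and after quantile normalization they were at -0.44 and -0.45.

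The CCN genes Ccn1 and Ccn2 encode matricellular proteins and are targets of both TGF-beta and YAP. Ccn1 (formerly Cyr61) was at 673 and 460 (log2 ratio 0.55, between 0.34 and 1.10 in 10 alternatives). Ccn2 (formerly Ctgf) was very bright in both arrays, at 3947 and 5133 (-0.38). That difference depended on the processing, since Ccn2 was at 0.0074 after quantile normalization and at -0.07 with the lowess trend removed.

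**Figure D3:**
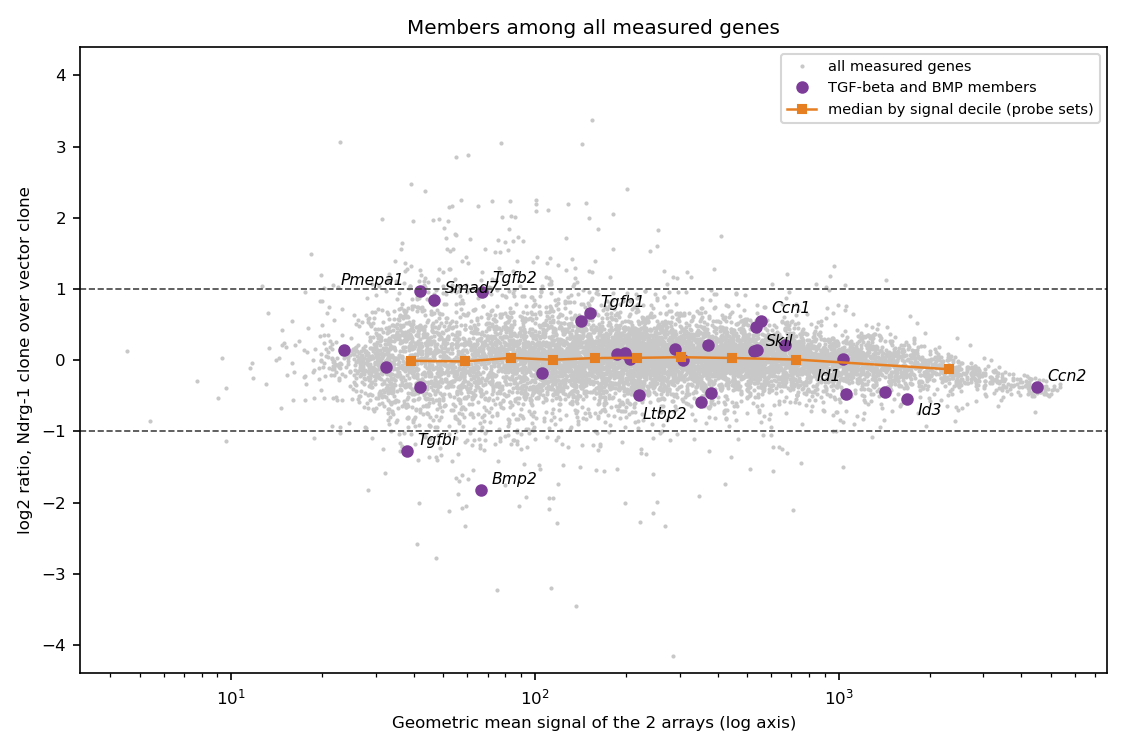
Log2 ratio against the geometric mean signal of both arrays (log axis) for the 9182 measured genes (grey) and the 30 measured members (purple), with the median of each signal decile of probe sets (orange, those under the floor in an array left out). Ccn2 lies at the bright end, where the median falls to -0.13, whereas Bmp2 and Tgfbi lie at low signal.

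The promoter sequences of members that lay on either side of 0 are shown to let the TGF-beta-induced inhibitors Pmepa1 and Skil be set beside Tgfbi and the BMP targets Id1 and Id3. They are the 250 bases before the annotated gene start, from RefSeq, and 31 of the 36 members had an entry. Capitals mark GTCTG, the core of a SMAD-binding element, and GGCGCC, a GC-rich element to which SMADs of the BMP branch bind, each searched on both strands. GTCTG reads CAGAC on the other strand, and hits of both motifs overlapped in 0 cases.
Pmepa1 (GRCr8, chr3:182478650-182478899, minus strand): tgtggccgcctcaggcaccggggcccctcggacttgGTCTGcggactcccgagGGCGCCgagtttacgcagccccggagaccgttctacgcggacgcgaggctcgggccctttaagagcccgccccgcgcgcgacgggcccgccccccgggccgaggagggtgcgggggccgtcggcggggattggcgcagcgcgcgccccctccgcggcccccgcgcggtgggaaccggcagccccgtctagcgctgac
Skil (GRCr8, chr2:114203573-114203822, minus strand): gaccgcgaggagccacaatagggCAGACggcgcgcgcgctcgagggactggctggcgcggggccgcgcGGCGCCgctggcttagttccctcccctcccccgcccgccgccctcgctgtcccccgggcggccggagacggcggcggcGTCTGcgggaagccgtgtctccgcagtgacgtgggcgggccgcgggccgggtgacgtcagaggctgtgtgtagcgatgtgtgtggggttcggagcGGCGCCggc
Tgfbi (GRCr8, chr17:7990114-7990363, minus strand): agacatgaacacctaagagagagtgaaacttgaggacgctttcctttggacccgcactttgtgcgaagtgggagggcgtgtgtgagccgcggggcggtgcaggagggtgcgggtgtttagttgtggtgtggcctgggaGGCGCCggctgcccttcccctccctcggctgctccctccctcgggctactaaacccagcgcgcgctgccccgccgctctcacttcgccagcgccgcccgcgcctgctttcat
Id1 (GRCr8, chr3:161671314-161671563, plus strand): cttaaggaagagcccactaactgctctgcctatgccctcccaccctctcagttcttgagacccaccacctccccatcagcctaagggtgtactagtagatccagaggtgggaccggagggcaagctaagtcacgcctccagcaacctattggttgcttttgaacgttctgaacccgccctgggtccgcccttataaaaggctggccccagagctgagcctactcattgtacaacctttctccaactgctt
Id3 (GRCr8, chr5:153656041-153656290, plus strand): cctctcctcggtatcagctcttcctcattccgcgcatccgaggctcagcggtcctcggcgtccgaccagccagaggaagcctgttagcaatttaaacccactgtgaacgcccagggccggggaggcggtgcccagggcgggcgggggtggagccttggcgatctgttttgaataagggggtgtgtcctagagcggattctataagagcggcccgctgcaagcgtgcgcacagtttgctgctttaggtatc
In these windows Pmepa1 held 1 hit of each motif, Skil held 2 of each, and Tgfbi held 1 hit of GGCGCC and 0 of GTCTG, while Id1 and Id3 held 0 of either. Over all members with an entry, GTCTG was found in 8 of 31 windows (25.8%), against 42.9% of all 33469 windows and 42.6% of those of protein-coding genes. GGCGCC was found in 11 of 31 (35.5%), against 8.69% and 11.1%. The members' windows were richer in G and C, with a median of 61.6% against 54% for protein-coding genes, and the part of base composition in these counts was not tested. The windows with GGCGCC belonged to genes above 0 such as Pmepa1, Skil and Smad7, to Tgfbi and Tgfbr3 below 0, and to genes under the floor such as Grem1 and Nog. Those with GTCTG also lay on both sides, in Pmepa1, Skil and Ccn1 above 0 and in Ltbp1, Ltbp2 and Ccn2 below it. The other windows with it were those of Bmp4 and Nog, under the floor. Ltbp2 held 3 hits of GTCTG, and Smad7, Tgfb1 and Tgfb2, above 0, held 0.

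Further probe sets gave a limited check of these values. Of 11 further member probe sets above the floor, from 8 members, 5 had the sign of the gene's value and 6 the opposite sign, and 8 lay within 2 SD of it. The 6 with the opposite sign belonged to Acvr1, Fst, Id2, Smad4 and Smad5, whose ratios were all near 0. The ratios of Tgfb1, Pmepa1, Tgfbi, Id1, Id3, Ccn1, Ccn2, Ltbp1, Ltbp2 and Skil rest on 1 probe set each. The same holds for Acvr2a, Bambi, Bmpr1a, Smad2 and Tgif1. For Bmp2, Smad3, Smad6, Smad7, Bmpr2, Tgfbr1 and Tgfbr3, every further probe set was under the floor in both arrays.

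**Figure D4:**
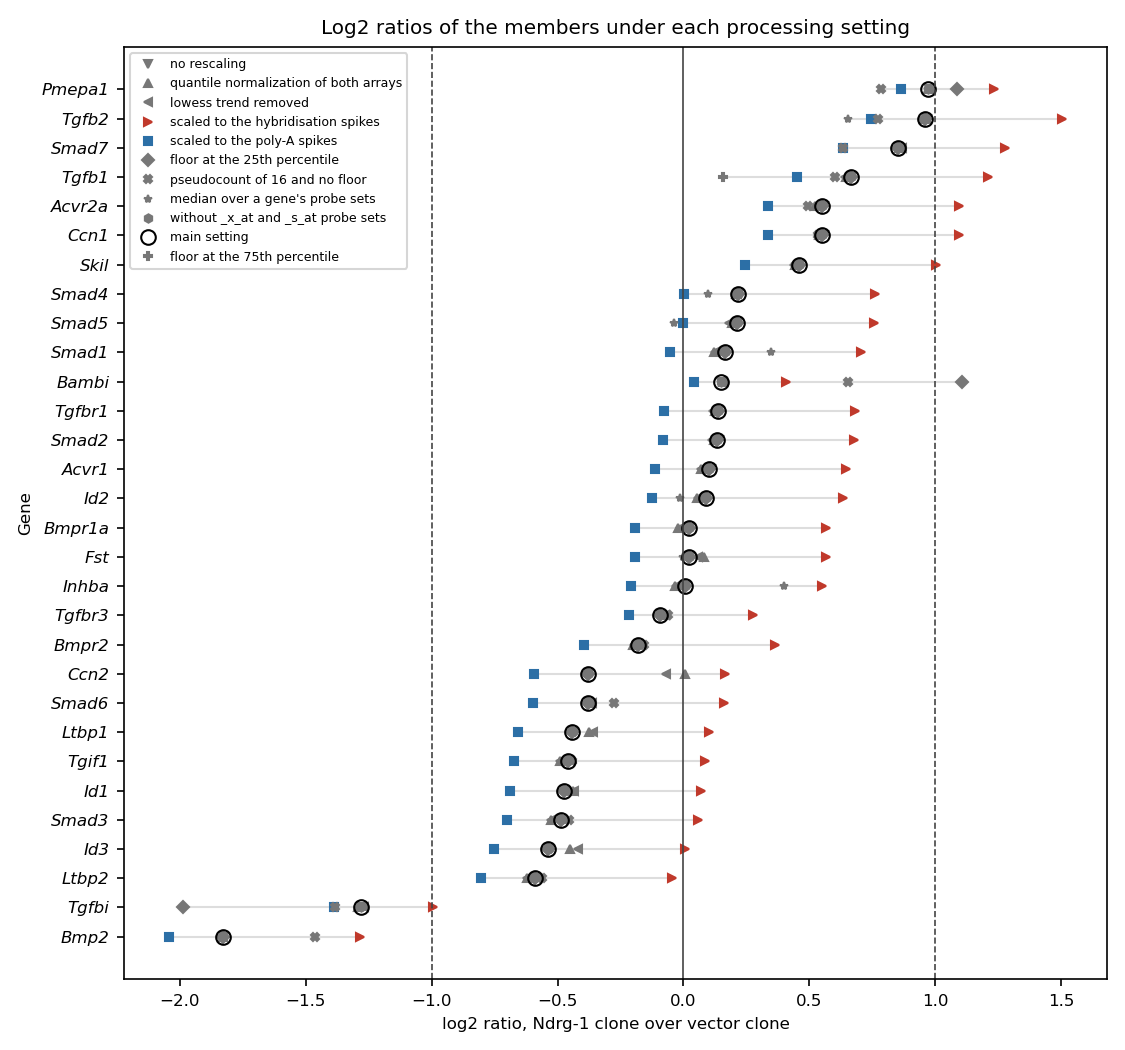
Log2 ratio of the Ndrg-1 clone over the vector clone for the 30 measured members in the main setting (open circles) and under each of 10 processing alternatives (other symbols), with dashed lines at 2-fold. Scaling to the hybridisation spikes (red) moves members up, leaving Bmp2, Tgfbi and Ltbp2 below 0, and scaling to the poly-A spikes (blue) leaves 9 members above 0.

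A wider list of 94 other genes of the pathway was also described, of which 78 had a probe set and 48 were measured. Of these, 3 were higher and 2 were lower by 2-fold or more, and the median log2 ratio was 0.07. That is 10.4%, against 6.67% of the measured members and 3.13% of all measured genes. The list was fixed with earlier results of these data known, so its share is no independent evidence about the pathway. The count of higher genes depended on the setting, with 6 when scaled to the hybridisation spikes or with the lower floor, 1 when scaled to the poly-A spikes or with a pseudocount, and 0 with the floor at the 75th percentile. Eng, the TGF-beta co-receptor endoglin, was at 91.4 against 28.8 in the vector clone, which was under the floor (at least 2.94-fold higher). Fstl3, a follistatin-like antagonist of activin, was at 62.8 against 23.6 (at least 2.02-fold higher), and the collagen gene Col1a1 was at 167 against 77.1 (2.16-fold higher), with a second probe set at 0.86. Fstl3 fell short of 2-fold in 2 of 9 alternatives and Col1a1 in 3 of 9. The second probe set of Fstl3 was under the floor in both arrays, at 15.3 and 5.1. The antagonists were uneven, as Fstl3 was higher while Fst was nearly equal. Of the 5 measured antagonists in the wider list, 2 lay above 0 and 3 below it, with a median log2 ratio of -0.33.

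Of the lower genes, Bmp5 joined Bmp2. Bmp5, a BMP ligand, was at 30.9 against 78.3, with the Ndrg-1 clone just under the floor (at least 2.52-fold lower), and its second probe set was under the floor in both arrays, at 15.2 and 18.1. Scaled to the hybridisation spikes Bmp5 was at -0.80. The collagen gene Col3a1 was at 356 against 1042 (2.93-fold lower). The collagens Col1a1 and Col3a1, both known targets of TGF-beta in fibroblasts, therefore differed in opposite directions, while Col1a2 was at 2197 and 2068 (0.09). The SMAD and receptor regulators had 0 of 17 past 2-fold, which is near the 3.13% of all measured genes, and their highest ratio was that of the ubiquitin ligase Nedd4l (0.76, 134 against 79.2).

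**Figure D5:**
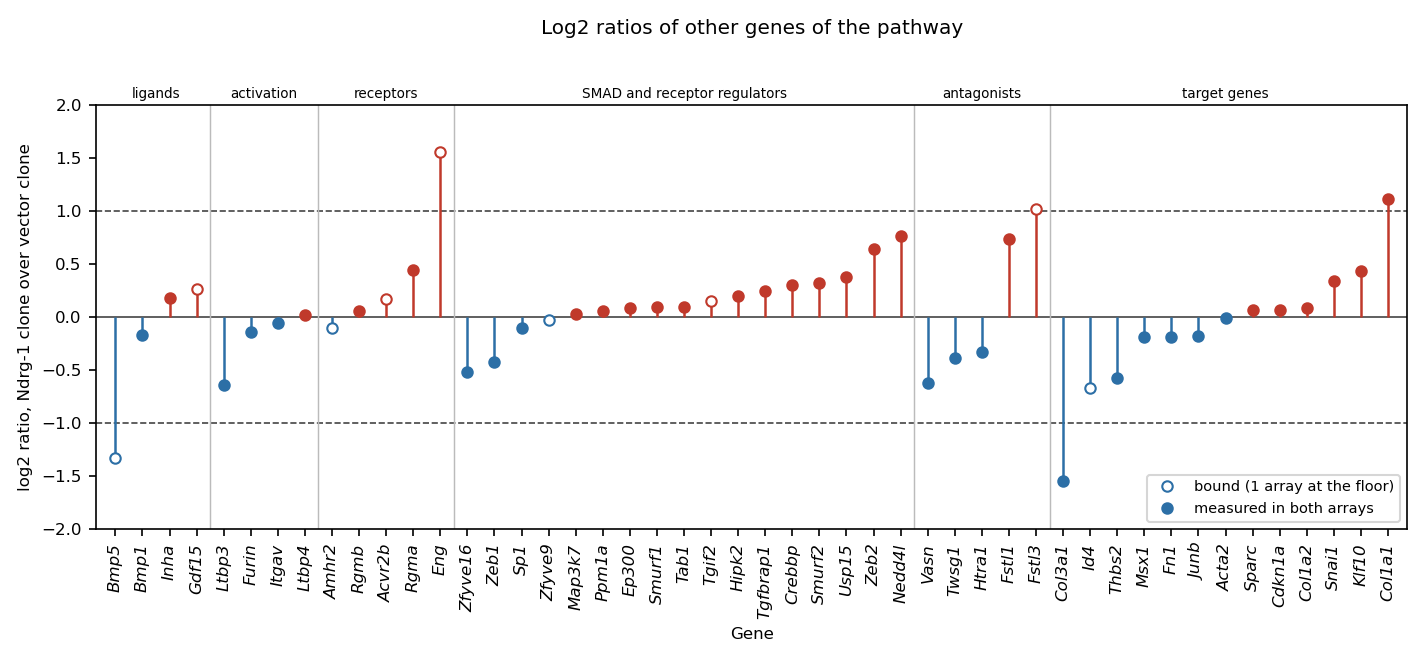
Log2 ratio of the Ndrg-1 clone over the vector clone for the 48 measured other genes of the pathway by role, with open circles for bounds and dashed lines at 2-fold. Eng, Fstl3 and Col1a1 lie above 2-fold and Bmp5 and Col3a1 below it, relative to the median gene.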

How the data were processed

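The authors deposited 1 intensity per probe set for each array, on a linear scale, for which the submitters' processing notes name GCOS 1.3. How probe sets were summarised, scaled and called detected is not given in the sources used here. Trimmed of 2% at each end, both deposited columns had a mean of 150.0. Among 31099 probe sets there were 57 controls, and 20826 carried 1 gene symbol in the platform annotation, of which 20758 were named through RefSeq gene IDs (GRCr8). The array table names no build, so the coordinates given are those of the RefSeq promoter windows alone (GRCr8). The vector array was rescaled by 0.0048 on the log2 scale, so that the brighter probe sets had a median ratio of 0. The probe set with the higher mean log2 signal stood for its gene. Differences of 2-fold were counted with no test, since 1 array per group limits the precision. All 36 members are accounted for, and other pathway genes are named if past 2-fold. Others (Col1a2, Nedd4l and those in the closing section) were chosen after their values were seen. The members and lists were chosen with earlier results of these data known. The ratio step was tested on simulated data. Alternatives were other scalings, a lower and a higher floor (25th and 75th percentile), a pseudocount of 16, the median over probe sets, and leaving out _x_at and _s_at probe sets. Genes under the 75th-percentile floor in both arrays had no ratio there, so theirs were compared over 9 alternatives and not 10. The tools were numpy 2.4.6, statsmodels 0.14.6 and pandas 2.3.3 in Python 3.11.15.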

Additional observations from a re-analysis of the deposited data

How the results depend on the processing

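Scaling to the hybridisation spikes gave 7 members at least 2-fold higher and 1 lower (Bmp2), a member median of 0.57, and 732 genes higher and 43 lower among all genes. Scaling to the poly-A spikes gave 240 genes lower. The floor at the 25th percentile gave 2 members higher (Bambi and Pmepa1), with 444 genes higher and 463 lower in all. The floor at the 75th percentile left 20 members measured, with 0 lower, since Bmp2 and Tgfbi were then under it, and 23 genes higher and 34 lower in all. Of 290 member ratios recomputed under the 10 alternatives, 250 moved by less than the SD of probe set disagreement, and 30 of the 40 that moved more did so under hybridisation-spike scaling. The 250 include all 30 under poly-A scaling, whose shift of 0.21 is smaller than that SD of 0.23. Yet members above 0 fell from 18 to 9 there. Also included are all 30 with no rescaling and all 30 without _x_at and _s_at probe sets, which changed little or nothing. The 250 is thus no measure of stability. The share of called genes that were higher was 51.9%, but 94.5% and 29.6% when scaled to the hybridisation and poly-A spikes and 40.4% with the higher floor. The sign of no 2-fold ratio named in the report was reversed in these alternatives. Scaling to the spikes shifts a ratio by about 0.54 at most, and a floor or pseudocount cannot change a sign. Those settings could thus not have reversed a 2-fold ratio, and the unchanged signs are no test of direction. No paired analysis was possible because each group held 1 array.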

Other observations

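Further genes of the pathway, named after their values were seen, lay on both sides of 0. The BMP-induced gene Id4 was at 4.34 in the Ndrg-1 clone and 49.3 in the vector clone (log2 ratio -0.67 or lower), with 3 further probe sets under the floor in both arrays, and the homeobox gene Msx1 was at 106 and 121 (-0.19, above 0 when scaled to the hybridisation spikes). Among TGF-beta-induced genes, the zinc finger gene Klf10 was at 565 and 419 (0.43) and Snai1, a repressor of epithelial genes, at 90.6 and 71.7 (0.34). The AP-1 gene Junb was at 152 and 172 (-0.18). Fn1, which encodes fibronectin, was at 2240.3 and 2556 (-0.19, above 0 when scaled to the hybridisation spikes). That difference depended on the processing, since Fn1 was at -0.0028 with the lowess trend removed and at -0.0163 after quantile normalization.

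Fstl1, a secreted glycoprotein that binds BMP ligands, had 3 probe sets that lay close together, at 458 against 275, 179 against 103 and 322 against 199 (log2 ratios 0.74, 0.80 and 0.69). The repressors of the ZEB family differed in sign, with Zeb2 at 229 and 147 (0.64, and 4 further probe sets between 0.09 and 0.43) and Zeb1 at 356 and 477 (-0.42, turning to 0.12 under hybridisation-spike scaling). Ltbp3, another latent TGF-beta binding protein, was at 152 and 237 (-0.64), and Ltbp4, the remaining member of that family, at 46.8 and 46.1 (0.02).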
